A study of Rattus norvegicus with 18 samples.

Results

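Itgal, Cd40lg, Cd70, Prf1 and Ppp2ca are 5 genes reported to be expressed more strongly in T cells when DNA methylation is inhibited. Their transcripts were followed in the blood of rats given procainamide or sterile water. The genes were chosen for that reported property, and each was found among the 15443 named genes of the arrays by matching the accession of a probe to RefSeq. Each gene had 1 probe, spotted 2 times on an array, and 4 of the 5 were bright enough to be tested.

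DNA methyltransferases keep methyl groups on the cytosines of CpG pairs, and a promoter that carries many of them tends to be silent. Procainamide, an antiarrhythmic drug that can induce lupus-like autoimmunity, inhibits the maintenance methyltransferase, and T cells exposed to it or to other inhibitors of DNA methylation have been found to make more LFA-1, CD70, perforin and CD40 ligand. T cells of patients with lupus have been described with the same pattern and with more of the catalytic subunit of protein phosphatase 2A. In blood, LFA-1 is carried by most leukocytes, perforin by cytotoxic T cells and NK cells, and CD40 ligand by activated helper T cells and platelets.

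The question of the series was which cellular and genetic factors set rat strains apart in drug-induced autoimmunity, and all animals used here were male. There were 4 arrays of Brown Norway (BN) control rats, which are inbred, 4 of BN rats given procainamide at 40 mg/kg, 5 of Sprague Dawley (SD) control rats, which are outbred, and 5 of SD rats given procainamide at 40 mg/kg. Controls received sterile water, and blood was taken from the venous sinus of the eye, so values are for whole blood RNA and not for sorted T cells. In such bulk RNA, fewer cells of a type and less RNA per cell cannot be told apart.

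Each 2-colour array had the sample's RNA in Cy5 and a common reference of the strain in Cy3, given by the labels as control replicate 1. The drug effect was therefore read from the log2 ratio of Cy5 over Cy3, and the strain effect from log2 Cy5 intensity. The BN control arrays lay on slide 2, the BN procainamide arrays on slide 3, and the SD arrays on slide 1 except SD procainamide 4 and 5, which lay on slide 2. Slide 2 was scanned on scan day 2 and the other slides on scan day 1. The median Cy5 signal of an array was 997 to 1986 in BN control, 1694 to 3187 in BN procainamide, 2152 to 2876 in SD control and 1446 to 2628 in SD procainamide. The share of probes with Cy5 well above background was 73.3% to 87.1%. Within BN the treatment thus moved together with slide, scan day and brightness, and no slide held both BN groups. BN and SD controls lay on different slides and scan days, and BN and SD procainamide arrays shared no slide. Strain thus moved together with slide in both strain comparisons. A term for scan day could be fitted only through the SD procainamide arrays, which span both days. Whether every array had its own animal is not given by the labels, so a p-value reflects only how far these samples spread, which may be technical.

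Methylation acts on CpG pairs, so the 250 bases before the transcription start are shown for the cytotoxic effector Prf1 and the phosphatase subunit Ppp2ca, which differ widely in CpG content. The sequences are from RefSeq on build GRCr8, of which 3 of the 5 genes had an entry, and capitals mark CpG pairs. The Prf1 window is chr20:29788790-29789039 on the plus strand, and the Ppp2ca window is chr10:36858787-36859036 on the plus strand. The Prf1 window abuts the start of the annotated gene. The start that RefSeq's promoter table uses for Ppp2ca lies inside the annotated gene span, which begins upstream of the window.
Prf1: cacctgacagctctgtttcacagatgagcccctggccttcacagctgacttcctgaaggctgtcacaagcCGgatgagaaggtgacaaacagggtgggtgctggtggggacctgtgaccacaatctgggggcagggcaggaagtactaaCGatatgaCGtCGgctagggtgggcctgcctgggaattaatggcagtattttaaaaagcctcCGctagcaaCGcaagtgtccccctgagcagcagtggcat
Ppp2ca: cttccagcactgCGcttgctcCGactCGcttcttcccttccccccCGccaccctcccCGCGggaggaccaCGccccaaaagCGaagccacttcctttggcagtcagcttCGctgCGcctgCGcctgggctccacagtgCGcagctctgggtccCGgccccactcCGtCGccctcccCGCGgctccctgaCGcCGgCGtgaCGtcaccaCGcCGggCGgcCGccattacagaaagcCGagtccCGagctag
The Prf1 window held 6 CpG pairs, which is the median of 27456 promoters of the same length, and the Cd70 window held 4. The Ppp2ca window held 27, a number reached by 8.12% of promoters. It contained the palindrome TGACGTCA, the full cAMP response element with a CpG at its centre, from 53 to 46 bases before the start, as 1.7% of promoters did. A CpG in the cAMP response element of the human PPP2CA promoter has been described as methylated to differing degrees in T cells. These letters describe the genome, and no methylation value was analysed here.

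Itgal, on chromosome 1 from 191348424 to 191386228, encodes CD11a, the alpha chain of the adhesion receptor LFA-1, which binds a T cell to cells that present antigen. The log2 ratios of Itgal were 0.23, -0.15, -0.62 and -0.38 on BN control arrays 1 to 4, and -0.32, 1.13, 0.98 and 0.74 on BN procainamide arrays 1 to 4. Of the treated arrays, 3 were above every control array, and array 1 lay among the controls, so the groups overlapped.

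Itgal was 1.82-fold higher in BN rats given procainamide than in BN controls (log2 difference 0.86 ± 0.27 SE, 95% interval 0.31 to 1.42, limma adjusted p = 0.0274). It was the only one of the 4 tested genes past the threshold of 0.05 in BN, where 21.8% of all 26424 probes tested passed. A difference at least as large was seen in 4.25% of probes. Groups lay fully apart for 19.5% of all probes in BN and for 0 of the 4 genes. The call did not hold with scan day as a term (log2 1.01, adjusted p = 0.364), and with array brightness as a term the difference was 0.20 (adjusted p = 0.753). It was also lost when BN control array 3 or 4, or BN procainamide array 2, 3 or 4, was left out (log2 0.70 to 0.83, adjusted p = 0.0657 to 0.0926), and in a fit of the BN arrays alone (adjusted p = 0.111). Without BN procainamide array 1, the dimmest of its group at a median signal of 1694, the difference was 1.18 (adjusted p = 0.000962).

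Control array 1 of each strain should, from its labels, hold the same RNA in both dyes, and there the Itgal ratio was 0.23 in BN and -0.18 in SD. Over all probes the log2 ratios of these arrays had an SD of 0.387 in BN, against 0.317 to 0.433 on the other control arrays, and of 0.244 in SD, against 0.200 to 0.275. The spread is as wide as on the other arrays. Spread alone cannot tell whether the reference is the RNA that the labels name, and this was not tested. Without both of these arrays the BN difference was 1.02 (adjusted p = 0.0215). The mean over T cell markers also lay apart in the same comparison, by a narrow gap. Groups lay apart for 19.5% of single probes by log2 ratio, which is not a like measure for a mean over markers. Their mean log2 ratio was -0.33 to 0.01 on BN control arrays and 0.04 to 0.23 on BN procainamide arrays. Their summed log2 Cy5 level was 17.89 to 18.11 on BN control arrays and 18.21 to 18.36 on BN procainamide arrays, with no overlap. On log2 Cy5 alone more probes were called in BN than by the ratio, and the share of probes lying apart on that scale was not computed. Of the 16 markers measured 1 passed the threshold by log2 ratio, where 22.8% of named genes did. It was Trat1, an adaptor of the T cell receptor complex (1.96-fold higher, adjusted p = 0.0195). Trat1 did not pass with scan day as a term (adjusted p = 0.603). The mean log2 ratio of 10 neutrophil markers was 0.13, 0.06, -0.51 and -0.28 on BN control arrays 1 to 4. On BN procainamide arrays 1 to 4 it was -0.63, 0.52, 0.62 and 0.38, with array 1 again the lowest. The part of T cell or neutrophil number in the Itgal difference was not tested.

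In SD rats the Itgal difference was small and did not pass. The log2 ratios were -0.18, -0.06, 0.09, -0.15 and -0.18 on SD control arrays 1 to 5, and -0.02, 0.15, -0.87, -0.06 and -0.14 on SD procainamide arrays 1 to 5. The SD groups overlapped, and array 3 of the treated group stood far below the rest. The log2 difference was -0.09 ± 0.24 SE (95% interval -0.59 to 0.41, adjusted p = 0.89), and 0.08 without that array. In SD 0 of the 4 genes passed by limma, against 2.75% of all probes, and 0 of the 4 had an unadjusted p under 0.05. Groups lay fully apart for 7.55% of all probes in SD and for 0 of the 4 genes. On slide 1 alone, with 5 SD control and 3 SD procainamide arrays, the log2 differences were -0.15 for Itgal, -0.39 for Cd40lg, -0.19 for Prf1 and -0.05 for Ppp2ca, and 0 of the 4 passed (adjusted p = 0.485 to 0.88).

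The BN response of Itgal exceeded the SD response by 0.95 ± 0.36 SE on the log2 scale, which did not pass the test of the difference itself (95% interval 0.21 to 1.70, adjusted p = 0.0921). For this difference 0 of the 4 genes passed, against 11.2% of all probes, and 2 of the 4, Itgal and Cd40lg, had an unadjusted p under 0.05. Without BN procainamide array 1 the Itgal difference between strains was 1.27 (adjusted p = 0.0063), and with log2 Cy5 alone it was 1.12 (adjusted p = 0.0183). With array brightness as a term it was 0.05 (adjusted p = 0.975).

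**Figure D1:**
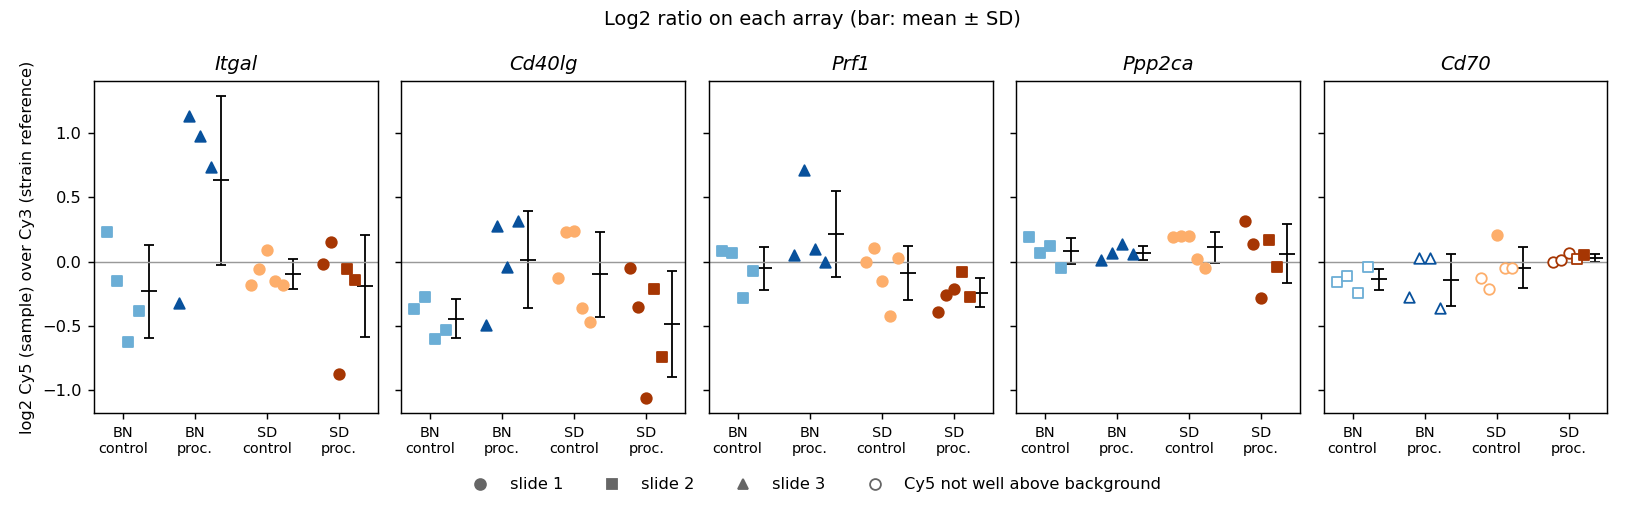
Log2 ratio of sample (Cy5) over strain reference (Cy3) of the 5 genes on each array, by group, with the slide as the shape of the point, open points where Cy5 was not well above background, and bars for the mean ± SD of 4 BN or 5 SD arrays. Itgal was 0.74 or higher on 3 of the 4 BN procainamide arrays and at most 0.23 on BN control arrays, while Ppp2ca stayed between -0.28 and 0.32 throughout.

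The Itgal level of rats that received no drug differed between BN and SD arrays, which lay on different slides and scan days. Log2 Cy5 was 10.10, 9.56, 9.14 and 9.42 on BN control arrays 1 to 4, and 12.16, 12.27, 12.41, 12.19 and 12.14 on SD control arrays 1 to 5. The highest BN value lay more than 2 log2 units below the lowest SD value. Itgal was 6.39-fold lower in BN controls than in SD controls (log2 difference -2.68 ± 0.24 SE, adjusted p = 1.27e-06), rank 30 by size among 26424 probes. The value rests on 1 probe whose sequence was not analysed here, so whether the strains differ in sequence under it was not examined, and this holds for every strain difference given.

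Itgal and Cd40lg were 2 of the 4 genes that passed between the control groups, where 39% of all probes passed, and both had groups without overlap, as 35.3% of all probes did. The Itgal difference held with scan day as a term (-2.56, adjusted p = 0.00488) and with array brightness as a term (-2.04, adjusted p = 0.000199). The Cy3 reference gave the same order, at a mean log2 intensity of 9.84 ± 0.08 (SD, n = 8) on BN arrays and 12.3 ± 0.10 (SD, n = 10) on SD arrays, a difference of -2.46. By the labels this is a single RNA of each strain, control replicate 1, read again on each array at the same probe. Its spread is thus that of repeated arrays and not of animals, and it is not independent of the Cy5 values. The summed log2 level of T cell markers was 17.98 to 18.20 in SD controls and 17.89 to 18.11 in BN controls, and the part of the cell makeup of blood in the Itgal difference was not tested.

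Under procainamide the strains were again without overlap in Itgal. Log2 Cy5 was 9.66, 11.01, 10.82 and 10.61 on BN procainamide arrays 1 to 4, and 12.29, 12.54, 11.54, 12.03 and 11.98 on SD procainamide arrays 1 to 5. Every BN array was below every SD array, and groups lay fully apart for 14.5% of all probes in this comparison. Itgal was 2.94-fold lower in BN (log2 difference -1.55 ± 0.24 SE, adjusted p = 0.000425), and the difference was -1.60 with scan day as a term (adjusted p = 0.00243). This fold too is a difference in signal at that 1 probe. Neutrophils and monocytes also carry LFA-1. In this comparison 8 of 10 neutrophil markers were higher in BN, and the part of either cell type in the Itgal level was not tested. It was 1 of 2 genes that passed in this comparison, with Prf1, where 20% of all probes passed. Both strain comparisons and both drug comparisons draw on the same 4 groups, so their values are not independent of each other.

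Cd40lg, on chromosome X from 140164341 to 140176057, encodes CD40 ligand, by which helper T cells activate B cells. Its log2 ratios were -0.37, -0.27, -0.60 and -0.53 on BN control arrays 1 to 4, and -0.49, 0.28, -0.04 and 0.32 on BN procainamide arrays 1 to 4. As for Itgal, BN procainamide array 1 lay among the controls and the other treated arrays above them. The difference was 0.46 ± 0.22 SE on the log2 scale, which did not pass (95% interval -0.01 to 0.92, adjusted p = 0.15).

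Without BN procainamide array 1 the Cd40lg difference was 0.63 (adjusted p = 0.0457). In the authors' deposited matrix it was 0.82 (adjusted p = 0.0492), in log2 Cy5 alone 0.74 (adjusted p = 0.0149), and with array brightness as a term it turned to -0.15. The Cy3 level of Cd40lg, which by the labels is the same RNA on all BN arrays, was 0.28 log2 units higher on the procainamide arrays than on the control arrays.

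In SD the Cd40lg ratios were -0.13, 0.23, 0.24, -0.36 and -0.47 on control arrays 1 to 5, and -0.05, -0.35, -1.06, -0.21 and -0.74 on procainamide arrays 1 to 5. Treated arrays lay lower on average and overlapped the controls, with array 3 lowest. The log2 difference was -0.39 ± 0.20 SE (95% interval -0.80 to 0.03, adjusted p = 0.336).

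The Cd40lg values of the strains thus had opposite signs, neither past the threshold, and the difference between them, 0.84 ± 0.30 SE, did not pass (95% interval 0.22 to 1.47, adjusted p = 0.0742). It passed without BN procainamide array 1 (1.01, adjusted p = 0.026), without SD procainamide array 1 (0.95, adjusted p = 0.0412), in the authors' deposited matrix (1.28, adjusted p = 0.0457) and in log2 Cy5 alone (1.23, adjusted p = 0.00467). With array brightness as a term it was 0.01 (adjusted p = 0.995).

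Between control groups Cd40lg was 2.08-fold lower in BN than in SD. Log2 Cy5 was 8.03, 7.73, 7.61 and 7.68 on BN control arrays 1 to 4, and 8.85, 9.17, 9.17, 8.54 and 8.38 on SD control arrays 1 to 5. All BN values lay below all SD values. The difference was -1.06 ± 0.21 SE (adjusted p = 0.00104), and it did not pass with scan day as a term (-1.04, adjusted p = 0.198) or with array brightness as a term (-0.57, adjusted p = 0.141). The Cy3 references, by the labels a single RNA of each strain, differed by -0.52 in the same direction. Platelets can carry CD40 ligand transcripts. Of 9 platelet markers 7 were higher in BN controls by limma, where 37.6% of named genes passed in either direction. In the fit with scan day 0 of the 9 passed and 4 had an unadjusted p under 0.05. The part of platelets in the Cd40lg value was not tested.

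Under procainamide the Cd40lg groups overlapped. Log2 Cy5 was 8.12, 8.77, 8.42 and 8.69 in BN and 8.74, 8.51, 7.74, 8.62 and 8.01 in SD. The difference of 0.17 ± 0.21 SE did not pass (95% interval -0.27 to 0.62, adjusted p = 0.598).

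**Figure D2:**
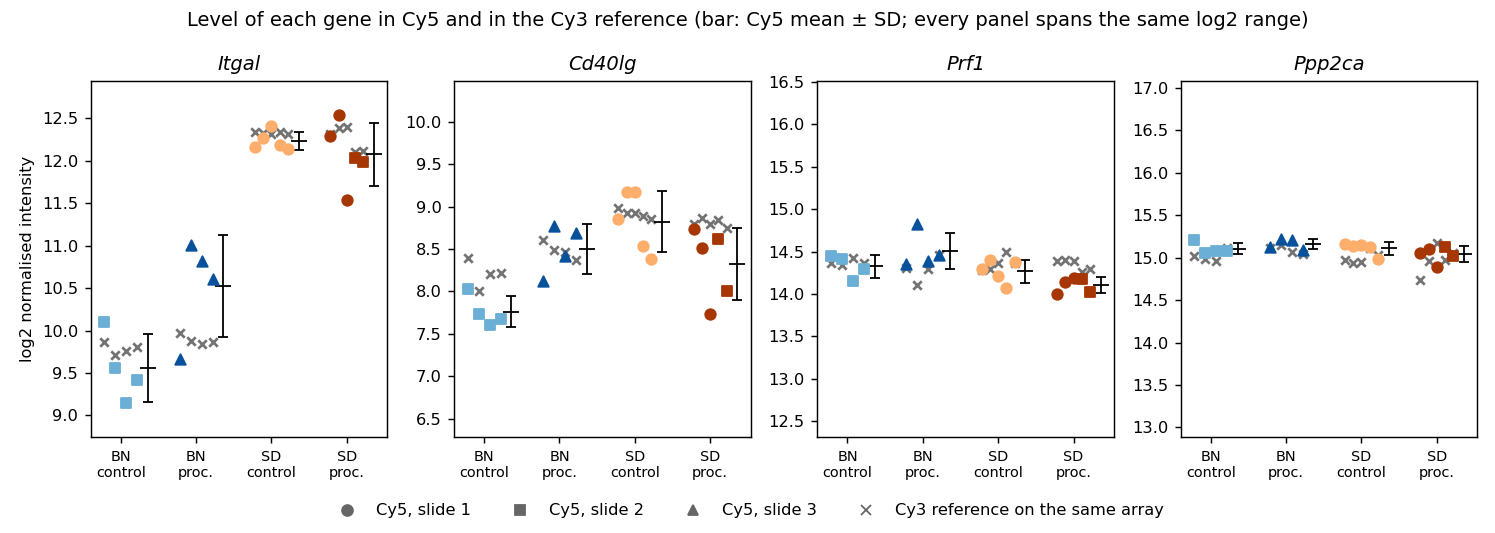
Log2 normalised intensity of 4 genes in Cy5 on each array (filled points, with the slide as their shape, and bars for the mean ± SD) and in the Cy3 reference of the same array (crosses), over panels of equal log2 range. Itgal separated the strains in both channels, with Cy5 of 9.14 to 11.01 in BN and 11.54 to 12.54 in SD, whereas Prf1 lay between 14.00 and 14.82 and Ppp2ca between 14.89 and 15.22 over all 4 groups.

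Cd70, on chromosome 9 from 2093540 to 2096692, encodes the ligand of CD27, a costimulatory receptor of T and B cells. Its Cy5 signal was well above background on 2 of 18 arrays, SD control 3 and SD procainamide 5, and on 0 of the 8 BN arrays. Cd70 was therefore not tested. The Cy3 reference at this probe was well above background on more arrays, in BN on control array 1 and procainamide arrays 1, 2 and 4. Log2 Cy5 was 6.53 to 6.98 over all arrays, and the log2 ratios of its 2 spots differed by a median of 0.51, against 0.04 to 0.06 for the other genes. A fall or a small change in Cd70 was therefore not detectable at this signal, and whether the probe would show a large rise was not tested. With no filter on dim probes the log2 difference was -0.01 ± 0.10 SE in BN and 0.08 ± 0.09 SE in SD. The 5 comparisons gave adjusted p = 0.659 to 0.973 by limma.

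Prf1, on chromosome 20 from 29789040 to 29794550, encodes perforin, which opens the membrane of a target cell to granzymes. The log2 ratios were 0.08, 0.07, -0.28 and -0.07 on BN control arrays 1 to 4, and 0.05, 0.71, 0.10 and 0.00 on BN procainamide arrays 1 to 4. Array 2 of the treated group stood apart at the top, and the others lay within or close to the control range. The log2 difference of 0.26 ± 0.15 SE did not pass (95% interval -0.05 to 0.57, adjusted p = 0.221), and it was 0.10 without array 2.

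In SD the Prf1 ratios were 0.00, 0.11, -0.15, -0.42 and 0.03 on control arrays 1 to 5, and -0.39, -0.26, -0.21, -0.08 and -0.27 on procainamide arrays 1 to 5. The groups overlapped. The difference was -0.15 ± 0.13 SE (95% interval -0.43 to 0.12, adjusted p = 0.608), and the difference between the strains' responses, 0.41 ± 0.20 SE, did not pass either (adjusted p = 0.189).

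Between the control groups Prf1 differed by 0.05 ± 0.10 SE on the log2 scale, which did not pass (95% interval -0.16 to 0.27, adjusted p = 0.698). Under procainamide it was 1.32-fold higher in BN than in SD. Log2 Cy5 was 14.35, 14.82, 14.39 and 14.46 on BN procainamide arrays 1 to 4, and 14.00, 14.14, 14.19, 14.18 and 14.02 on SD procainamide arrays 1 to 5. All BN arrays were above all SD arrays, as for 14.5% of all probes.

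The difference in Prf1 under procainamide was 0.40 ± 0.10 SE (95% interval 0.18 to 0.62, adjusted p = 0.0125). It held with scan day as a term (adjusted p = 0.0439) and did not pass with slide as a random block (0.40, adjusted p = 0.0662), with array brightness as a term (0.34, adjusted p = 0.053) or in a fit of these groups alone (adjusted p = 0.0511). Among markers of NK cells, which carry perforin, 1 of 8 was higher in BN in the same comparison, the inhibitory receptor Klrc1 (2.32-fold, adjusted p = 0.000499), where 19.5% of named genes passed in either direction. Of the 16 T cell markers 5 were higher and 1 lower, with Cd28, the receptor of B7 costimulation, 1.86-fold higher (adjusted p = 0.00963). The part of cytotoxic cell number in the Prf1 difference was not tested.

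Ppp2ca, on chromosome 10 from 36856534 to 36878789, encodes the alpha catalytic subunit of protein phosphatase 2A, an abundant serine and threonine phosphatase that restrains ERK signalling. Its log2 ratios were 0.19, 0.07, 0.12 and -0.05 on BN control arrays 1 to 4, and 0.01, 0.07, 0.14 and 0.06 on BN procainamide arrays 1 to 4. They were 0.19, 0.20, 0.20, 0.02 and -0.05 on SD control arrays 1 to 5, and 0.32, 0.14, -0.28, 0.17 and -0.04 on SD procainamide arrays 1 to 5. Treated and control arrays overlapped in both strains.

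The log2 difference of Ppp2ca was -0.01 ± 0.11 SE in BN (95% interval -0.24 to 0.22, adjusted p = 0.943) and -0.05 ± 0.10 SE in SD (95% interval -0.26 to 0.15, adjusted p = 0.834). Between the control groups it was -0.00 ± 0.07 SE (95% interval -0.15 to 0.14, adjusted p = 0.964), and under procainamide 0.12 ± 0.07 SE (95% interval -0.02 to 0.27, adjusted p = 0.222). No interval of the 4 reached beyond 0.27 on the log2 scale in either direction, and the sign of the smallest values turned with the normalisation. The 95% interval of the difference in response between the strains was -0.27 to 0.35 (adjusted p = 0.895).

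**Figure D3:**
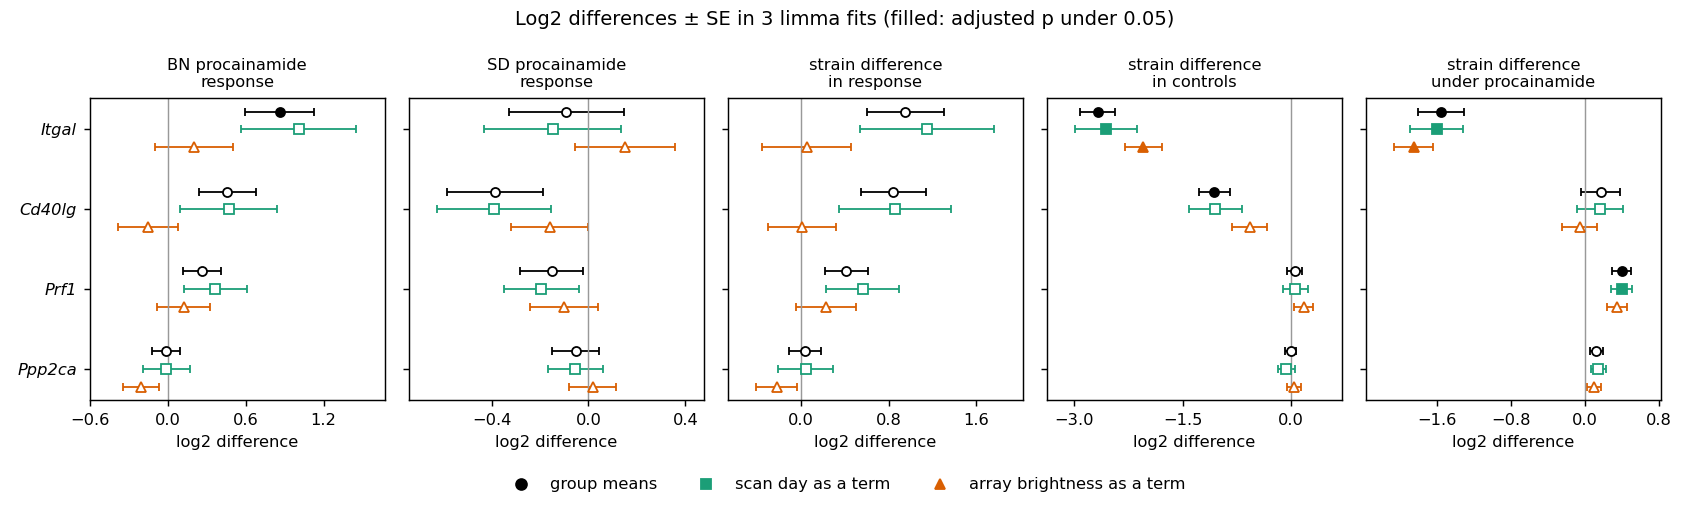
Log2 difference ± SE of 4 genes in the 5 comparisons (columns), from limma fits with group means alone (circles), with scan day as a term (squares) and with array brightness as a term (triangles), filled where adjusted p was under 0.05. The strain difference of Itgal was past the threshold in all 3 fits, and its BN response of 0.86 only in the fit of group means.

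Genes that work with the 5 were described from lists, whose counts are read against all 13601 named genes tested. In BN 22.8% of named genes passed and in SD 3.18%. Among partners of LFA-1, 1 of 8 measured genes rose in BN, Icam1, the endothelial and leukocyte ligand of LFA-1 (1.87-fold, adjusted p = 1.59e-05). Icam1 also rose in SD (1.30-fold, adjusted p = 0.0277), again as 1 of 8. With scan day as a term Icam1 passed in BN (adjusted p = 0.0432) and in SD (0.0238). Itgb2, the beta chain that pairs with CD11a, had a log2 difference of -0.10 in BN (adjusted p = 0.537) and -0.23 in SD (adjusted p = 0.19). Unlike Itgal, Itgb2 was higher in BN than in SD controls (1.40-fold, adjusted p = 0.00746), where 37.6% of named genes passed, a call not kept with scan day as a term (adjusted p = 0.883).

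In the TNF and TNF receptor family, to which CD40 ligand and CD70 belong, 6 of 17 measured genes passed in BN, all of them higher, with a median log2 difference of 0.20 against -0.02 over all named genes. Tnfrsf4, the costimulatory receptor OX40, rose 2.00-fold (adjusted p = 9.27e-05), Tnf 2.44-fold (adjusted p = 0.000315), Tnfrsf14, the receptor HVEM, 1.63-fold (adjusted p = 0.000946), and Faslg, the death ligand of cytotoxic cells, 2.22-fold (adjusted p = 0.00186). A fit that also had scan day kept 1 call among the 17, Tnfrsf4 (adjusted p = 0.0378). Cd27, the receptor of CD70, rose 1.33-fold (adjusted p = 0.00382), and Cd40, the receptor of CD40 ligand, had a log2 difference of 0.20 (adjusted p = 0.296). In SD 1 of the 17 rose, Tnfrsf4 (1.49-fold, adjusted p = 0.0142), a call not kept with scan day as a term (adjusted p = 0.0683).

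Among genes of the cytotoxic granule, 2 of 15 rose in BN and the same pair rose in SD. Gzmm, a granzyme, was 1.70-fold higher in BN (adjusted p = 0.0007) and 1.49-fold higher in SD (adjusted p = 0.0139). Nkg7, a granule membrane protein, was 1.65-fold higher in BN (adjusted p = 0.000611) and 1.40-fold higher in SD (adjusted p = 0.0227). With scan day as a term Gzmm passed in SD (adjusted p = 0.0264), and Nkg7 in SD (0.0655), Gzmm in BN (0.277) and Nkg7 in BN (0.175) did not. Perforin did not pass in either strain. Of the NK cell markers 2 of 8 were higher in BN, a share near that of all named genes, Klrc1 3.87-fold (adjusted p = 2.16e-05) and the Fc receptor Fcgr3a 2.08-fold (adjusted p = 0.016). Klrc1 was 1.74-fold higher in SD (adjusted p = 0.0375). The NK receptor Ncr1 went the other way and did not pass, at log2 -0.80 in BN (adjusted p = 0.123) and -1.10 in SD (adjusted p = 0.0731). Klrb1a was also below 0 without passing, at -0.20 in BN and -0.33 in SD. The median log2 difference of the 8 markers was 0.14 in BN and 0.12 in SD. With scan day as a term Klrc1 passed in BN (adjusted p = 0.0357) and not in SD (0.0828), and Fcgr3a did not pass (0.308). The part of NK cell number in the granule genes was not tested.

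Of 17 subunits and regulators of protein phosphatase 2A, 3 passed in BN, all of them lower. They were the scaffold subunit Ppp2r1b (1.32-fold lower, adjusted p = 0.00246) and the regulatory subunits Ppp2r5a (1.40-fold lower, adjusted p = 0.00907) and Ppp2r2c (1.24-fold lower, adjusted p = 0.0317). None of the 3 passed with scan day as a term (adjusted p = 0.246 to 0.71). The other catalytic subunit, Ppp2cb, had a log2 difference of -0.09 in BN (adjusted p = 0.594). In SD 0 of the 17 passed by limma, 2 had an unadjusted p under 0.05, and Ppp2cb had -0.14 (adjusted p = 0.509).

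**Figure D4:**
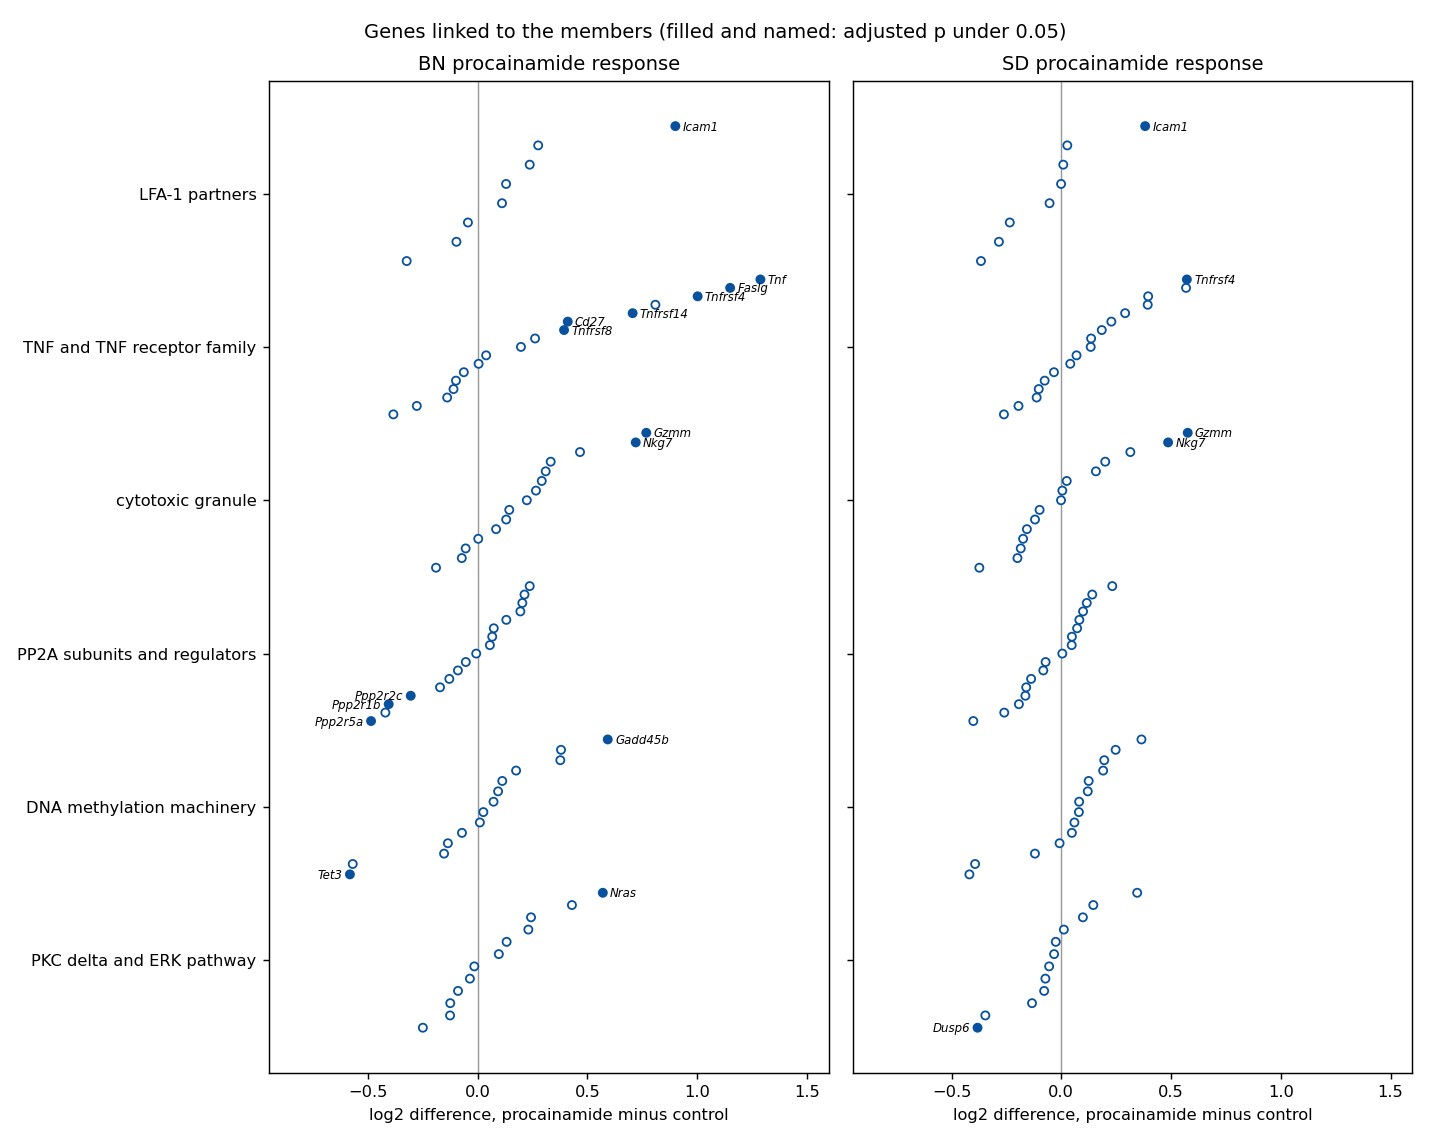
Log2 difference (procainamide minus control) in BN (left) and SD (right) of every measured gene of 6 lists, 1 point a gene, filled and named where limma adjusted p was under 0.05. Icam1, Tnfrsf4, Gzmm and Nkg7 were past the threshold in both strains, and the 3 called genes of protein phosphatase 2A lay below 0 in BN.

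In the DNA methylation machinery, 1 of 14 genes rose in BN and 1 fell. Gadd45b, a stress-induced gene linked to DNA demethylation, rose 1.51-fold (adjusted p = 0.000381), and it also passed with scan day as a term (adjusted p = 0.0419). Tet3, an enzyme that oxidises methylcytosine, fell 1.50-fold (adjusted p = 0.000492), a call not kept in that fit (adjusted p = 0.152). The difference in response between the strains, called for 11.2% of all probes, passed for both, at 0.54 for Gadd45b (adjusted p = 0.0102) and -0.66 for Tet3 (adjusted p = 0.00384). With scan day as a term neither passed (adjusted p = 0.801 and 0.832). In that fit 0 of all 13601 named genes passed, so it could not set these genes apart from others. In SD 0 of the 14 passed by limma, and 2 had an unadjusted p under 0.05. Dnmt1, the maintenance methyltransferase, was not analysed here.

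In the route from PKC delta to ERK, whose activity feeds Dnmt1 expression in T cells, Nras rose 1.48-fold in BN (adjusted p = 0.00187) as 1 of 12 genes. In SD the ERK phosphatase Dusp6 fell 1.30-fold (adjusted p = 0.0179) as 1 of 12. Neither kept its call with scan day as a term (adjusted p = 0.472 and 0.0565).

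Of 7 other genes reported to respond to DNA methylation in T cells, 2 rose and 1 fell in BN. Ifng, the Th1 cytokine interferon gamma, rose 10.8-fold (adjusted p = 7.18e-05), Il2, the T cell growth factor, rose 1.29-fold (adjusted p = 0.0128), and the Th2 cytokine Il13 fell 1.20-fold (adjusted p = 0.0346). In SD 1 of the 7 passed, Ifng (4.49-fold higher, adjusted p = 0.00712), and this call held with scan day as a term (adjusted p = 0.0264). In BN 0 of the 7 passed by limma once scan day was a term and 1 had an unadjusted p under 0.05, Ifng having a log2 difference of 3.08 (adjusted p = 0.0625). Between control groups Il4, the leading Th2 cytokine, was 2.63-fold lower in BN (adjusted p = 4.27e-06), and this held with scan day as a term (adjusted p = 0.0229). Under procainamide Foxp3, the factor that defines regulatory T cells, was 1.35-fold lower in BN than in SD (adjusted p = 0.00854, and 0.0374 with scan day as a term).

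Between control groups Cd27 was 1.37-fold lower in BN (adjusted p = 0.000828) and Cd40 1.29-fold lower (adjusted p = 0.0124). Cd40lg, the ligand of Cd40, was lower too, and Cd70, the ligand of Cd27, was not tested. Of 17 genes of the TNF family 7 were lower and 1 was higher, where 37.6% of named genes passed in either direction. With scan day as a term neither Cd27 nor Cd40 passed (adjusted p = 0.59 and 0.531), and 0 of the 17 did. Icam2, a further ligand of LFA-1, was 1.59-fold lower in BN controls (adjusted p = 0.00825), also not past the threshold with scan day as a term (adjusted p = 0.31). Responses of the strains to the drug differed for Icam1 by 0.52 on the log2 scale (adjusted p = 0.0181) and for Tnf by 0.89 (adjusted p = 0.0364), both higher in BN. With scan day as a term the values were 0.19 for Icam1 (adjusted p = 0.881) and -0.002 for Tnf, and neither passed, as 0 of all 13601 named genes did in that fit.

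Markers of other blood cells gave these counts in BN rats given procainamide. Of 9 platelet markers 5 were lower, of 8 erythroid markers 1 was lower, and of 8 B cell markers 1 was lower. Among 10 neutrophil markers 1 was higher and 1 lower, and the same counts were found for 10 monocyte markers. Median log2 differences were -0.42, -0.47, -0.11, 0.69 and 0.03 for the platelet, erythroid, B cell, neutrophil and monocyte lists, against -0.02 over all named genes. Once scan day was a term, 0 markers of these 5 lists passed by limma, and 1 each of the platelet, B cell, neutrophil and monocyte lists had an unadjusted p under 0.05. All but 1 of the 16 T cell markers, and all 8 NK cell markers measured, were well above background on all 18 arrays.

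The genes whose ratios moved most like each of the 5 over the 18 arrays, after group means were removed, are given as a description. The points share BN procainamide array 1 and SD procainamide array 3, on which Itgal and Cd40lg were lowest in their groups, and the normalisation of each array. Prf1 moved most like the granzymes Gzma (Pearson r = 0.839) and Gzmb (r = 0.789), and then Mapkapk2 (r = 0.779), among 13600 genes compared. By rank the order differed, with a Spearman rho of 0.728, 0.659 and 0.818. BN procainamide array 2, where Prf1 stood apart at the top, is among the points. For Itgal the closest were Hadhb, a mitochondrial fatty acid oxidation enzyme (r = 0.953), and Tbk1, a kinase of innate immune signalling (r = 0.952). Cd40lg moved most like Trappc8 (r = 0.904) and Lpxn, a leukocyte adaptor protein (r = 0.902), and Ppp2ca most like Hnrnpk, an RNA binding protein (r = 0.931).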

How the data were processed

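Blood RNA of 18 samples was hybridised to Agilent 2-colour arrays. The deposited spot intensities are median pixel values from Feature Extraction 10.7.1.1, not normalised, per the file headers. The same software made the processed intensities and the log10 ratios, per the file headers. The authors deposited a matrix of log2 ratios of 25602 probes whose scale, centring and direction are not stated. Its columns fell on a line of slope 1 (r at least 0.999) against the scanner's Cy5 over Cy3 ratios on the log2 scale, with column medians of -0.014 to 0.0653, and Cd70 is not among its probes.

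Intensities were corrected with normexp (offset 50) and ratios normalised by loess within arrays in limma 3.58.1 (R 4.3.3), with control spots at weight 0. Spots of a probe were averaged without those marked as non-uniform or outliers, which were kept only where a probe had no other (0.0741% of values). For strain comparisons log2 Cy5 was further normalised by Aquantile. Tests covered 26424 of 30367 probes, those whose Cy5 was well above background on 4 or more of the 18 arrays, and 18355 of all probes carried a gene symbol. Means of the 4 groups (14 residual degrees of freedom) were fitted over all arrays, moderated by eBayes, 2-sided, with Benjamini-Hochberg adjustment over all probes tested and a threshold of 0.05. The script was tested on simulated data. The number of arrays limits the precision.

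A gene was represented by its brightest probe. The genes named were the 5 members, from each of 14 lists up to 4 members of smallest p past the threshold in a comparison, Itgb2, Cd27, Cd40, Ppp2cb and Dnmt1 whatever their p, and up to 3 genes of highest r to each member. The members and lists were chosen with earlier results of these data known. Gene positions and promoters are from RefSeq on build GRCr8. Replicate numbers were not taken as pairs. Correlations of deviations from group means of same-numbered control and procainamide arrays lay between -0.523 and 0.129. Such values cannot show whether the samples were matched. Alternatives covered background correction, filters, normalisation, channel, scan day, slide, array brightness, probe choice, the samples fitted, the replicate block and each array left out.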

Additional observations from a re-analysis of the deposited data

Results flagged for a closer look

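In 32 checks of 4 genes, each in 4 groups and on both scales, 4 single arrays stood far from the rest of their group, where chance flags about 1 in 20 groups. The Itgal log2 ratio of SD procainamide array 3 was -0.865, a gap of 0.714 of the range of its group. The Prf1 log2 ratio of BN procainamide array 2 was 0.7073, with a gap of 0.857 of the range. Ppp2ca log2 Cy5 was 15.21 on BN control array 1, the highest of its group, and 14.98 on SD control array 5, the lowest of its group.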

How the results depend on the processing

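Strain differences of Itgal passed the threshold with the same sign in all alternatives run, with log2 -2.88 to -2.04 between controls and -1.85 to -1.265 under procainamide, while its BN response passed in 13 of 16 alternatives that left out no single array. Scan day as a term left 209 probes called in BN (5754 in the main setting), 254 in SD (727), 0 for the difference in response (2947), 375 between controls (10306) and 2596 under procainamide (5274), with 0 of the 4 genes called in BN and 1 between controls. Unadjusted p under 0.05 was found there for 1 gene in BN and for 1527 probes for the difference in response. Array brightness as a term left 685, 427, 6, 2779 and 2922, with 0 genes in BN (0 also by unadjusted p), 1 between controls and 1 under procainamide. Slide as a random block left 4481 between controls and 2057 under procainamide, there with 1 gene. Log2 Cy5 alone called 10400 in BN and 9370 for the difference in response, with 2 genes in each. The authors' deposited matrix called 2 genes in BN and 1 for the difference in response, as the scanner log ratio did there. Fits of only the groups compared called 2799 in BN with 0 genes, 1489 in SD and 2688 under procainamide with 1 gene, and 344 probes were called in the SD arrays of slide 1 alone, a setting added after seeing the data.

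None of the values that turned sign were past the threshold, and the largest of them in the main setting was Cd40lg in BN at 0.46. With array brightness as a term Cd40lg was -0.152 in BN and -0.0563 under procainamide, Itgal was 0.152 in SD, and Ppp2ca was 0.0170 in SD, -0.222 for the difference in response and 0.0397 between controls. Ppp2ca in BN was 0.0507 with median centring, 0.0314 with the scanner log ratio and with the authors' deposited matrix, 0.0557 with log2 Cy5 alone, 0.0227 without both arrays of control replicate 1 and 0.0419 without both BN arrays numbered 1. It was 0.050 in SD with median centring and 0.172 between controls with processed Cy5 minus the 75th percentile.

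Leaving out 1 array at a time gave 3936 to 6495 probes in BN, 234 to 982 in SD, 1882 to 3822 for the difference in response, 8624 to 10778 between controls and 3211 to 5843 under procainamide. The genes called were 0 to 2 in BN, 0 in SD, 0 to 2 for the difference in response, and 2 in both strain comparisons. Ppp2ca was -0.0573 to 0.0227 in BN, -0.118 to 0.0318 in SD, -0.0459 to 0.104 for the difference in response and -0.0391 to 0.0115 between controls, and Itgal in SD was -0.176 to 0.0785. The cause of these shifts was not tested.

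The replicate block, for numbers not taken as pairs, left 391 probes in SD and 3422 under procainamide. It changed no call of the 5 genes, Itgal in BN having adjusted p = 0.0479. The fit of only the groups compared gives no value for the difference in response, which needs all 4. Each gene rests on 1 probe. Signal over background kept Cd70 out of the tests, and Cd40lg was dim in BN controls, at a processed Cy5 signal of 30.1 to 55.2, with a BN response of 0.46 in the main setting and 0.82 in the authors' deposited matrix.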
